A study of Mus musculus with 6 samples.

Results

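The VEGF family members described here were 9 genes, 4 ligands (Vegfa, Vegfb, Vegfc and Pgf) and 5 receptors (Kdr, Flt1, Flt4, Nrp1 and Nrp2). They were the rows of the deposited count table, which holds 52459 gene symbols, whose symbol is one of these names. All 9 were among the 19565 genes that passed the filter on low counts. The libraries came from whole brains of C57BL/6 mouse embryos at E14.5, from 3 embryos labelled Mfsd7c-/- and 3 labelled wild type. Mfsd7c, also named Flvcr2, encodes a transporter in the cell membrane, and the sources used here do not give the deleted part, the litters or the sex of the embryos. The design addresses which transcripts differ between knockout and wild-type brains, and here the ligands were set against their receptors.

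VEGF-A is the main growth factor for blood vessels of the developing brain, where neural progenitors secrete it and vessels grow towards it from the surface. It signals through the receptor tyrosine kinase VEGFR2, the product of Kdr, on endothelial cells. VEGFR1, the product of Flt1, binds VEGF-A tightly with weak kinase activity and also exists as a soluble form that holds the ligand away from VEGFR2. Placental growth factor (Pgf) and VEGF-B (Vegfb) bind VEGFR1, and VEGF-C (Vegfc) binds VEGFR3, the product of Flt4, which is found on sprouting and lymphatic endothelium. The neuropilins (Nrp1 and Nrp2) are co-receptors for VEGF and also receptors for class 3 semaphorins on axons. Vegfa transcription is raised by hypoxia-inducible factors (HIF) when oxygen is low.

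In the knockout brains 3 of the 9 members rose and 0 fell. The ligand Vegfa rose 2.93-fold, its receptor Flt1 2.33-fold and the VEGF-C receptor Flt4 2.00-fold. The calls were made with edgeR's quasi-likelihood test, with p-values adjusted by the Benjamini-Hochberg method over all genes at a false discovery rate (FDR) of 0.05. By the same rule 0.624% of all genes tested rose and 0.0358% fell, and 8.09% had an unadjusted p under 0.05. The DESeq2 Wald test called the same 3 members, with 1.27% of genes rising and 0.301% falling, and so did limma-voom, with 0.613% and 0.0358%. The count fell to 1 member with a sex term in the fit, which rests on wild-type replicate 2 alone. It was also 1 without knockout replicate 1 or either of wild-type replicates 2 and 3. Over all genes 34 rose with the sex term and 48, 33 and 40 without these libraries, against 122 in the fit used here. Without both of these wild-type replicates a lone wild-type library remains. There Vegfa, Flt1 and Flt4 were at 1.83, 1.33 and 1.01 on the log2 scale. The other 3 ligands and Kdr, Nrp1 and Nrp2 did not pass, with fold changes from 1.01 (Pgf) to 1.13 (Nrp1), and 0 of them had an unadjusted p under 0.05. All knockout libraries were above all wild-type libraries for the 3 members that rose, as for 7.84% of all genes tested, and the groups overlapped for the other 6. Over all genes 14.4% showed no overlap in one direction or the other. The median log2 fold change was 0.15 over the 9 members, 0.10 over the 4 ligands and 0.18 over the 5 receptors, against -0.01 over all genes tested.

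The libraries held 43784619 to 50549673 counts. Mfsd7c was at 2.67 ± 0.113 CPM (counts per 1000000, on library sizes scaled by the TMM method; SD, n = 3) in the libraries labelled knockout, against 5.20 ± 0.573 CPM in wild-type (SD, n = 3). The log2 fold change was -0.96 (edgeR adjusted p = 0.0271). All libraries carried brain transcripts, with neuron markers summing to 6024 to 7126 CPM and neural progenitor markers to 1957 to 2036 CPM. Some libraries stood apart. Knockout replicate 1 and wild-type replicate 1 had 437 and 367 CPM of summed epidermal markers, and the others 20.6 to 83.7 CPM. Wild-type replicates 2 and 3 had 152 and 42.4 CPM of summed Hox genes of hindbrain and spinal cord, which were at most 4.13 CPM elsewhere. Wild-type replicate 2 had 82198 counts of Xist, the others 6 to 27. The embryonic share of beta-globin counts was 23.6% in knockout replicate 2 and 23.3 and 26.5% in wild-type replicates 2 and 3. In the other libraries it was 2.80 to 5.03%, so it was spread unevenly over the groups. The number of genes called over the whole table rests on which libraries are included, and not only on those that stood apart. With all libraries 122 genes rose, and without knockout replicate 3 the number was 38. Values per library are given below in the order of replicates 1, 2 and 3.

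The stretches just upstream of the starts of Vegfa, Flt1 and Kdr are shown because Vegfa and Flt1 rose together and Kdr, whose product shares the ligand VEGF-A with that of Flt1, did not pass. They are the bases before the RefSeq transcript start on GRCm38.p6, read 5′ to 3′ on the gene's own strand, and they stop short of annotated exons. Capitals mark matches, on either strand, to GCGTG, a core sequence of HIF binding sites, and to GGGCGG, the GC box bound by Sp1-family factors. Matches on the opposite strand appear as CACGC and CCGCCC.
Vegfa chr17:46032378-46032627 minus strand: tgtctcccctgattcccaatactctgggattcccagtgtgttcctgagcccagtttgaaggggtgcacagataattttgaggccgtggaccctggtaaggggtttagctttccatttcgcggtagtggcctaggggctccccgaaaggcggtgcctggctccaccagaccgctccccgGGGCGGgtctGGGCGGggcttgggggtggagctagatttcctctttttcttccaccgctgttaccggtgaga
Flt1 chr5:147726012-147726261 minus strand: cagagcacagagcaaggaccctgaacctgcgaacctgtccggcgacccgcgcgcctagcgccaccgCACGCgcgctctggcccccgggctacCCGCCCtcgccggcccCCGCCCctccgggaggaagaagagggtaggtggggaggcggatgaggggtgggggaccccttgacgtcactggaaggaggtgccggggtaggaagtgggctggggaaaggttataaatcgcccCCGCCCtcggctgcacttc
Kdr chr5:75978459-75978705 minus strand: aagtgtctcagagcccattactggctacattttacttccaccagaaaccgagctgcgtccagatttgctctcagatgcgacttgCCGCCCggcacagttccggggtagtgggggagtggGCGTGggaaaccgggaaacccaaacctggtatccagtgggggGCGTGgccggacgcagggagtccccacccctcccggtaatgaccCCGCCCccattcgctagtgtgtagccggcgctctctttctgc
The Vegfa stretch held 2 GC boxes, which begin 72 and 62 bases before the start, and no GCGTG. Flt1 held 3 GC boxes and 1 GCGTG, which begins 184 bases before the start. Kdr held 2 GC boxes and 2 GCGTG matches, at 131 and 89 bases. The other HIF core, ACGTG, had 0 matches in these 3 stretches. Sequence further upstream was not searched, so these counts do not show that a gene lacks a HIF site. A core of ETS factor sites, AGGAAG, was also searched on both strands and is not in capitals. It had 2 matches in Flt1, which begin 129 and 53 bases before the start, and 0 in Vegfa and Kdr. No match in these 3 stretches overlapped a match of another motif. The table holds a second start for Vegfa, whose window held 1 ACGTG, 1 GCGTG, 1 GC box and 0 AGGAAG, and it is not printed because 218 of its bases lie in annotated exons of the gene. Of 32851 RefSeq promoters, the same 250 bases held GCGTG in 28.2%, ACGTG in 16.6%, GGGCGG in 32.7% and AGGAAG in 29.5%. All 9 members matched the promoter table, and the window of Flt4 is not printed because it lies within an annotated exon of the gene.

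Vegfa (ENSMUSG00000023951.17; chromosome 17, 46016993 to 46032369 on GRCm38) has 8 annotated protein-coding transcripts. The knockout libraries had 9713, 9680 and 14685 counts, which is 225, 191 and 306 CPM. The wild-type libraries had 3006, 4497 and 4464 counts, or 67.8, 89.5 and 89.1 CPM. The lowest knockout library was above the highest wild-type library, knockout replicate 3 stood highest, and wild-type replicate 1 was lowest. The means were 241 ± 59.4 and 82.1 ± 12.4 CPM (SD, n = 3). On the log2 scale Vegfa rose by 1.55 (SE 0.192, edgeR adjusted p = 0.0215). The table gives 1 count per gene, so the splice forms of VEGF-A, which differ in how they bind matrix and neuropilins, are summed here. Over the 16 alternative fits the log2 change ran from 1.34 to 1.83, but the call was lost in 9 of them. The adjusted p was 0.0713 without knockout replicate 1, and 0.0922, 0.102 and 0.149 without wild-type replicates 1, 2 and 3. Without both wild-type replicates 2 and 3, the libraries with Hox transcripts, it was 0.480, and without both libraries with epidermal transcripts 0.271. Choroid plexus markers, whose tissue is known to make VEGF-A, summed to 650 CPM in knockout replicate 1, 999 in replicate 2 and 1371 in replicate 3, against 985 to 1109 in wild-type. The part of choroid plexus in the Vegfa result was not tested.

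The other ligand genes did not pass. Vegfb, a ligand of VEGFR1, had 34.2, 28.5 and 30.7 CPM in the knockout libraries, against 31.5, 27.2 and 27.0 CPM in the wild-type libraries. Its fold change was 1.09, with a 95% interval from 0.940 to 1.26 (edgeR adjusted p = 0.793). The groups overlapped, and a 1.5-fold rise lies outside that interval. Vegfc, the ligand of VEGFR3, was scarce, at 5.38, 4.83 and 5.49 CPM in knockout and 5.57, 4.36 and 4.89 CPM in wild-type, a fold change of 1.06 with an interval from 0.847 to 1.33 (edgeR adjusted p = 0.918). Pgf was at 3.78, 4.67 and 4.72 CPM in knockout and 5.10, 3.82 and 4.15 CPM in wild-type, a fold change of 1.01 with an interval from 0.777 to 1.31 (edgeR adjusted p = 0.991). The highest and the lowest Pgf value of the 6 libraries were wild-type replicate 1 and knockout replicate 1. Pgf lies 0.569 Mb from Mfsd7c on chromosome 12 (85166635 to 85177790) and is the member nearest the targeted gene.

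**Figure D1:**
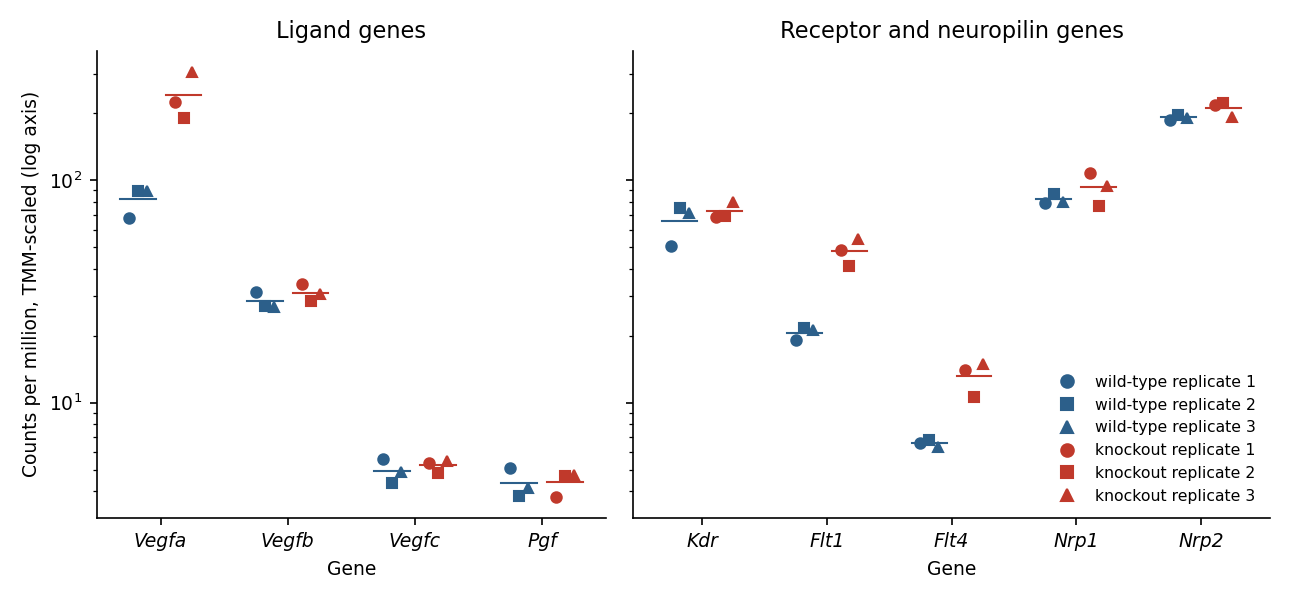
Level of each member in each library, in TMM-scaled CPM on a log axis, ligands at left and receptors at right. Points are libraries, marker shape gives the replicate number and horizontal lines are group means. Vegfa, Flt1 and Flt4 are the members whose knockout points (red) all lie above the wild-type points (blue).

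Per kilobase of annotated exon, the scale on which genes can be compared, the ranges of Vegfa and Vegfb overlapped in wild-type brains and did not in knockout brains. In wild-type brains Vegfa stood at 19.2 ± 2.90 and Vegfb at 17.8 ± 1.59 CPM per kilobase (SD, n = 3). In knockout brains Vegfa stood at 56.2 ± 13.9 and Vegfb at 19.4 ± 1.80 CPM per kilobase (SD, n = 3). Vegfc and Pgf were much lower, at 2.02 ± 0.248 and 1.5 ± 0.228 CPM per kilobase in wild-type and 2.14 ± 0.144 and 1.51 ± 0.182 in knockout (SD, n = 3). Exons of all annotated transcripts are counted in the length, so a gene with long minor transcripts reads lower on this scale.

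Flt1 (ENSMUSG00000029648.13; chromosome 5, 147561604 to 147726011), the gene of VEGFR1, was the receptor with the largest change. The knockout libraries had 2100, 2079 and 2608 counts of it, or 48.7, 41.0 and 54.4 CPM. The wild-type libraries had 848, 1084 and 1066 counts, or 19.1, 21.6 and 21.3 CPM. The lowest knockout value, 41.0 CPM, stood well above the highest wild-type value, 21.6 CPM. The log2 fold change was 1.22 (SE 0.109, edgeR adjusted p = 0.00182), and Flt1 ranked 22 of all genes by p-value. It passed without any single library, with adjusted p at most 0.0203, and missed the threshold only without both wild-type replicates 2 and 3 (adjusted p = 0.0555). The counts do not separate the membrane-bound receptor from the soluble form.

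Flt4 (ENSMUSG00000020357.3; chromosome 11, 49609263 to 49652739), the gene of VEGFR3, was the scarcest receptor. The knockout libraries had 604, 535 and 715 counts, or 14, 10.5 and 14.9 CPM, and the wild-type libraries had 291, 342 and 318 counts, or 6.56, 6.80 and 6.34 CPM. The wild-type libraries lay within a narrow band and all 3 knockout libraries lay above it, with knockout replicate 2 nearest. On the log2 scale Flt4 rose by 1.00 (SE 0.141, edgeR adjusted p = 0.0187). Leaving out 1 library ended the call in 4 of 6 fits, with adjusted p of 0.10 and 0.139 for knockout replicates 1 and 3 and of 0.112 and 0.120 for wild-type replicates 2 and 3, and with log2 fold changes from 0.90 to 1.14 over the 6 fits that leave out 1 library. It was also lost without both wild-type replicates 2 and 3 (0.241). Of 3 lymphatic markers (Prox1, Lyve1 and Pdpn) 0 passed in edgeR, DESeq2 or limma-voom, and they summed to 102 to 120 CPM in knockout and 98.4 to 110 CPM in wild-type. Lyve1, a hyaluronan receptor of lymphatic endothelium and macrophages, was the one of them with an unadjusted p under 0.05 (log2 fold change 0.36, SE 0.119, edgeR adjusted p = 0.445), and its part in the Flt4 result was not tested.

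Kdr (ENSMUSG00000062960.10; chromosome 5, 75932827 to 75978458), the gene of the main signalling receptor VEGFR2, did not pass. The knockout libraries had 68.0, 69.3 and 80.0 CPM, and the wild-type libraries 50.6, 74.7 and 70.9 CPM. The groups overlapped, and wild-type replicate 1 was the low library. The fold change was 1.11 with a 95% interval from 0.883 to 1.39 (edgeR adjusted p = 0.840), so that the changes fitted for Flt1 and Flt4 lie outside it. The log2 fold change was -0.01 without wild-type replicate 1 and 0.52 without both wild-type replicates 2 and 3.

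The neuropilin genes did not pass. Nrp1 was at 108, 76.4 and 93.8 CPM in knockout and at 79.2, 86.5 and 80.2 CPM in wild-type, a fold change of 1.13 with an interval from 0.946 to 1.35 (edgeR adjusted p = 0.749). Its knockout libraries spread on both sides of the wild-type ones. Nrp2 was at 219, 223 and 193 CPM in knockout and at 187, 197 and 191 CPM in wild-type, a fold change of 1.10 with an interval from 0.992 to 1.23 (edgeR adjusted p = 0.644). Knockout replicate 3 lay within the wild-type range. The microRNA gene Mir1903 shares 80 exon bases with Nrp1, and no other annotated gene shares exon bases with a member.

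**Figure D2:**
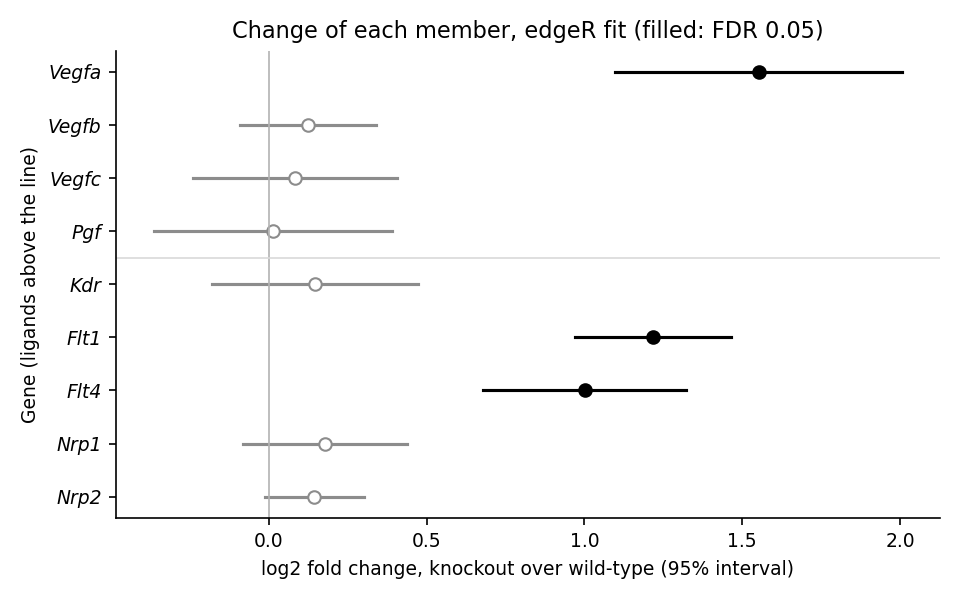
Log2 fold change of each member, knockout over wild-type, with its 95% interval from the edgeR fit to 3 against 3 libraries. Filled points passed an FDR of 0.05. Vegfa (1.55), Flt1 (1.22) and Flt4 (1.00) lie apart from the other 6 members, whose intervals include 0.

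Among the receptors the order of levels per kilobase was the same in both groups. In wild-type brains it ran from Nrp2 at 16.2 ± 0.429 through Nrp1 at 8.38 ± 0.406, Kdr at 7.25 ± 1.44 and Flt1 at 1.53 ± 0.0988 to Flt4 at 0.798 ± 0.0279 CPM per kilobase (SD, n = 3). In knockout brains it ran from Nrp2 at 17.9 ± 1.37 through Nrp1 at 9.48 ± 1.63, Kdr at 8.02 ± 0.730 and Flt1 at 3.56 ± 0.499 to Flt4 at 1.60 ± 0.280 CPM per kilobase (SD, n = 3). The values of Nrp1 and Kdr overlapped in both groups and those of other neighbours did not.

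Ratios within a library set the members against each other without the library size. There were 8 pairs, taken on log2(CPM + 0.5). The ratio of Flt1 to Kdr was 0.717, 0.595 and 0.682 in the knockout libraries, against 0.384, 0.293 and 0.305 in wild-type. All 3 knockout ratios were above the wild-type ones, a mean log2 difference of 1.03. Vegfa to Kdr, ligand to signalling receptor, was 3.29, 2.74 and 3.81 in knockout and 1.34, 1.196 and 1.25 in wild-type, a log2 difference of 1.37. Vegfa to Flt1 was 4.59, 4.61 and 5.59 in knockout and 3.48, 4.08 and 4.11 in wild-type, a log2 difference of 0.34. This was the smallest of the 6 differences without overlap, and ligand and receptor had both risen. Flt4 to Kdr was 0.211, 0.158 and 0.192 in knockout and 0.138, 0.0971 and 0.0958 in wild-type, a log2 difference of 0.77. The knockout value nearest the wild-type ones was again that of replicate 2.

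Of the ratios between ligands, Vegfa to Vegfb was 2.13, 3.24 and 3.26 in wild-type and 6.50, 6.60 and 9.83 in knockout, without overlap. Pgf to Vegfa, 2 ligands of VEGFR1, was 0.0820, 0.0480 and 0.0519 in wild-type and 0.0190, 0.0270 and 0.0170 in knockout. For these 6 pairs the exact two-sided permutation test over the 6 libraries gave p = 0.1, the smallest that 3 against 3 allows, and 0.133 after adjustment over the 8 pairs. No pair could therefore pass. Nrp1 to Kdr and Nrp2 to Nrp1 overlapped between the groups, with mean log2 differences of 0.00188 and -0.02 (exact permutation p = 1 for both).

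**Figure D3:**
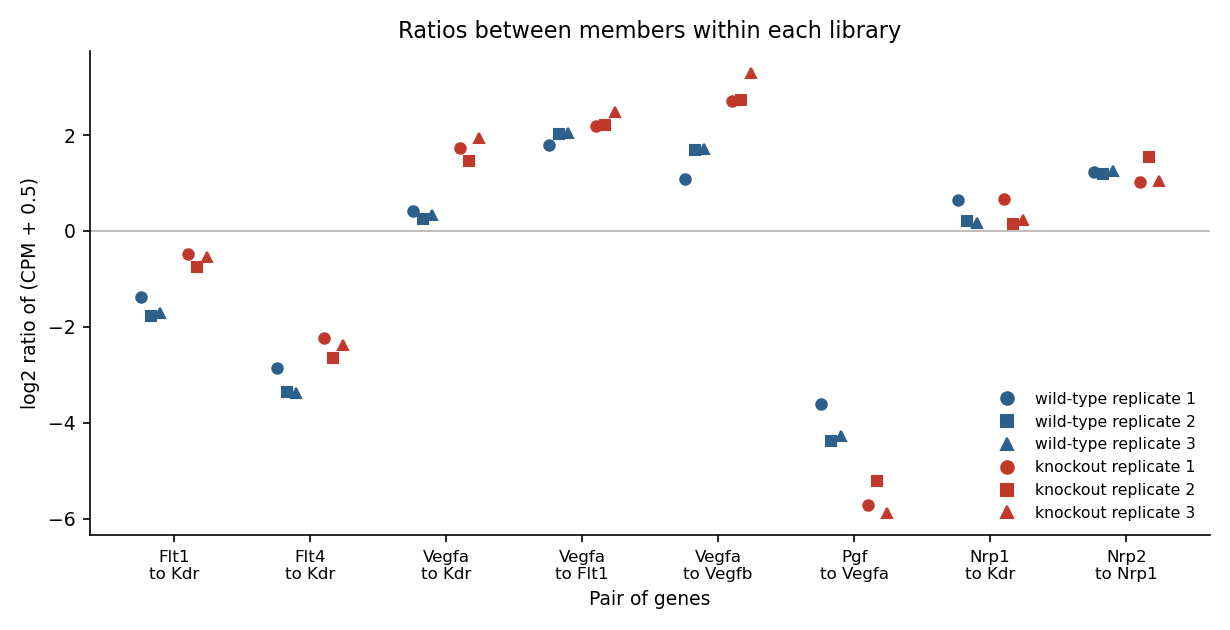
Log2 ratio of CPM + 0.5 between 2 members within each library, for the 8 pairs. Red points are knockout and blue points wild-type libraries, and the horizontal line marks equal CPM. The groups are apart for 6 pairs and overlap for Nrp1 to Kdr and Nrp2 to Nrp1.

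Kdr, Flt1 and Flt4 are made largely by endothelial cells, so their levels were set beside 12 other endothelial markers (Pecam1, Cdh5, Tek, Tie1, Emcn, Egfl7, Esam, Erg, Cldn5, Robo4, Eng and Ets1). In bulk tissue a change in the number of cells of a type and a change in RNA per cell cannot be told apart. The 12 markers summed to 371, 379 and 407 CPM in knockout and to 300, 350 and 344 CPM in wild-type, and all were detected. In edgeR 4 of the 12 rose (Pecam1, Emcn, Eng and Robo4) and 1 fell (Cldn5), so the panel itself did not move as one. Over all genes tested 0.624% rose and 0.0358% fell. DESeq2 called 7 of the 12 and limma-voom 5, and 7 had an unadjusted edgeR p under 0.05. The panel mean of log2(CPM + 0.5) was 0.26 higher in knockout. Relative to that mean, Flt1 was at 0.91, 0.65 and 0.96 in knockout and at -0.05, -0.12 and -0.10 in wild-type on the log2 scale, a difference of 0.93. Flt4 differed by 0.67 and the groups did not overlap. Kdr was at 1.39, 1.40 and 1.51 in knockout and at 1.33, 1.65 and 1.61 in wild-type, a difference of -0.10 with overlap. The panel mean averages markers that went both ways, with log2 fold changes of 1.00 for Pecam1, 0.80 for Eng, 0.79 for Emcn and 0.72 for Robo4, against -0.50 for Cldn5 and -0.49 for Tek, which did not pass. The log2 fold change of Flt4, 1.00, was the size of that of Pecam1, so Flt4 was not apart from the highest markers of the panel. That of Flt1, 1.22, was above that of Pecam1, but the edgeR interval of Flt1, from 0.97 to 1.465, includes 1.00. Flt1 was therefore not shown to lie apart from Pecam1 either. Nrp1 and Nrp2, which neurons also make, differed by -0.10 and -0.12.

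**Figure D4:**
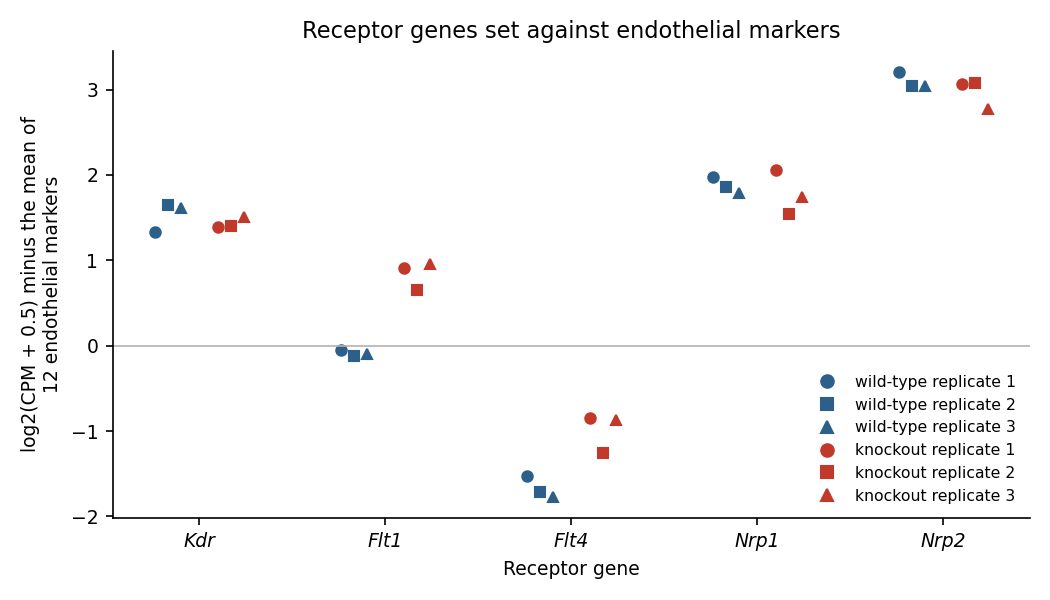
Each receptor gene's log2(CPM + 0.5) minus the mean of 12 endothelial markers in the same library. Red points are knockout and blue points wild-type libraries. Flt1 and Flt4 are higher in all 3 knockout libraries, and Kdr, Nrp1 and Nrp2 overlap between the groups.

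Markers of other cells that can make VEGF receptors or ligands were measured as well. Microglia and macrophage markers summed to 108, 117 and 137 CPM in knockout and to 110 to 114 CPM in wild-type, with 0 of 7 past the threshold in edgeR. Mural cell markers summed to 197 to 225 CPM in knockout and 275 to 287 CPM in wild-type, with 1 of 7 lower. That gene was the pericyte gene Rgs5 (log2 fold change -1.28, edgeR adjusted p = 9.4e-04). The rest of the mural list did not pass, with log2 fold changes from -0.28 (Abcc9) to 0.13 (Acta2), so the lower sum rests largely on Rgs5. Erythroid markers summed to 1768 to 3605 CPM in knockout and 1154 to 2480 CPM in wild-type, with 0 of 9 past the threshold. Meningeal fibroblast markers summed to 632 to 836 CPM in knockout and 528 to 1277 CPM in wild-type, with 0 of 6 past the threshold. DESeq2 and limma-voom also called 0 genes of the microglia, erythroid and meningeal lists, of which 1 erythroid gene had an unadjusted edgeR p under 0.05. The part of these cells in the VEGF results was not tested.

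Of 10 genes of the HIF pathway, which controls Vegfa by oxygen, 2 rose and 0 fell in edgeR. Over all genes tested 0.624% rose and 0.0358% fell. The 2 genes encode prolyl hydroxylases that mark HIF for destruction when oxygen is present. Egln3 rose from 12.6 ± 1.23 to 29.6 ± 5.98 CPM (SD, n = 3; log2 change 1.23, SE 0.145, edgeR adjusted p = 0.00868) and Egln1 from 87.3 ± 4.69 to 127 ± 14.3 CPM (SD, n = 3; log2 fold change 0.54, SE 0.0851, edgeR adjusted p = 0.0309). The genes of the HIF subunits did not pass. Transcript counts do not measure the HIF proteins on which these hydroxylases act, and the control of Vegfa by oxygen was not tested. Epas1, which encodes HIF-2 alpha, stood at 0.26 on the log2 scale (SE 0.102, edgeR adjusted p = 0.554), and Hif3a at 0.15 (SE 0.0740, edgeR adjusted p = 0.675). The median log2 fold change of the list was 0.08. Leaving out wild-type replicate 2 or 3 gave 0 calls in the list, where 33 and 40 genes rose over the whole table. Leaving out knockout replicate 1 or 3 gave 1 call, where 48 and 38 rose. Leaving out both libraries with epidermal transcripts also gave 1 call, where 265 rose. With all libraries 122 rose over the whole table.

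The signalling genes downstream of the receptors held no call. Of 38 listed genes, from phospholipase C gamma to the kinases further down, 37 could be tested and 0 passed in edgeR, DESeq2 or limma-voom, while 3 had an unadjusted edgeR p under 0.05. Over all genes tested 0.624% rose and 8.09% had such a p, so neither count stands apart from the background. The 3 were the kinase gene Map2k1 at 0.29 on the log2 scale (SE 0.0860, edgeR adjusted p = 0.353), the Src-family kinase Yes1 at 0.18 and the PI3 kinase subunit Pik3ca at 0.12. The median log2 fold change of the list was 0.07. Signalling itself works by phosphorylation, which transcript counts do not measure.

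Genes that VEGF is known to induce in endothelial cells held several calls. Of 18 tested, 5 rose and 0 fell in edgeR, with a median log2 fold change of 0.34. Over all genes tested 0.624% rose and 0.0358% fell. The list was chosen with earlier results of these data known, so its count does not test a VEGF response. The mean of Esm1, a proteoglycan secreted by tip cells, was 1.47 ± 0.188 CPM in wild-type and 7.59 ± 1.01 CPM in knockout (SD, n = 3). Plaur, the urokinase receptor, rose from 0.811 ± 0.117 to 2.76 ± 0.426 CPM (SD, n = 3; log2 fold change 1.76, SE 0.216, edgeR adjusted p = 0.0102). The other 3 were the peptide ligand Apln (log2 fold change 2.22), the Tie2 ligand Angpt2 (2.38) and the surface sialomucin Cd34 (1.14). Dll4, the Notch ligand of tip cells, did not pass at 0.53 (SE 0.147, edgeR adjusted p = 0.308), nor did the calcineurin inhibitor Rcan1 at -0.00093 (edgeR adjusted p = 0.998). These 2 were chosen for mention after their values were seen. Leaving out 1 library gave 4 to 5 calls in this list, where 33 to 233 genes rose over the whole table.

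Receptor partners and trafficking proteins contributed 1 call among 20 genes, where 0.624% of all genes tested rose. Itgb3, the integrin beta-3 chain that associates with VEGFR2, rose from 3.62 ± 0.337 to 6.75 ± 0.907 CPM (SD, n = 3; log2 fold change 0.90, SE 0.151, edgeR adjusted p = 0.0416). Leaving out knockout replicate 1 or 3, or wild-type replicate 2 or 3, gave 0 calls in the list. Over all genes 48, 38, 33 and 40 rose in these fits, against 122 with all libraries. Without wild-type replicate 1, and without both libraries with epidermal transcripts, 2 genes rose, where 233 and 265 rose over all genes. The next 3 by p-value were the integrin chains Itgb1 (0.28, edgeR adjusted p = 0.138) and Itgav (0.21, adjusted p = 0.483) and the motor protein gene Myo6 (0.18, adjusted p = 0.582), and the median of the list was 0.06.

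Of 14 semaphorin, plexin and adhesion genes that work with the neuropilins, 1 rose, where 0.624% of all genes tested did. Plxnd1, the plexin of endothelial cells, rose from 94.8 ± 4.85 to 168 ± 9.26 CPM (SD, n = 3; log2 fold change 0.83, SE 0.0634, edgeR adjusted p = 9.4e-04). Plxna4 (0.27), Sema3g (-0.33) and Plxna3 (-0.30) followed by p-value and did not pass. The median was 0.01. Without wild-type replicate 1, 1 gene of the list fell, where 155 fell over all genes. Without both libraries with epidermal transcripts 2 fell, where 194 did over all genes, against 7 with all libraries. Of 7 genes for VEGF-C and VEGF-D processing and lymphatic identity, 0 passed in edgeR, DESeq2 or limma-voom, and 2 had an unadjusted edgeR p under 0.05, Lyve1 and the VEGF-C protease gene Adamts3 (log2 fold change 0.24, edgeR adjusted p = 0.593). Prox1, the lymphatic master regulator that neural progenitors also express, was at 0.17 (edgeR adjusted p = 0.774), and the next gene by p-value was the ligand gene Vegfd (0.45, SE 0.414, edgeR adjusted p = 0.833).

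The genes most like the raised members were taken by Pearson's r of log2(CPM + 0.5) over the 6 libraries, among genes with a mean of at least 5 CPM. With 2 groups of 3 libraries, any gene that differs between the groups tends to score high, so these are descriptions only. Vegfa was most like Dlc1, a RhoGAP gene (r = 0.998), Jak3, a cytokine receptor kinase (0.997), and Hk2, a hexokinase of glycolysis (0.997). Flt1 was most like Myh9, a nonmuscle myosin heavy chain (0.998), Pecam1, the endothelial adhesion molecule (0.998), and Lcp1, an actin-bundling protein of blood cells (0.998). Flt4 was most like Grhpr, a glyoxylate reductase (0.999), Higd1a, a hypoxia-induced mitochondrial protein (0.998), and Asph, an aspartate hydroxylase (0.997). Of these genes Dlc1 and Asph did not pass (edgeR adjusted p = 0.138 and 0.0579), and the others did.

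**Figure D5:**
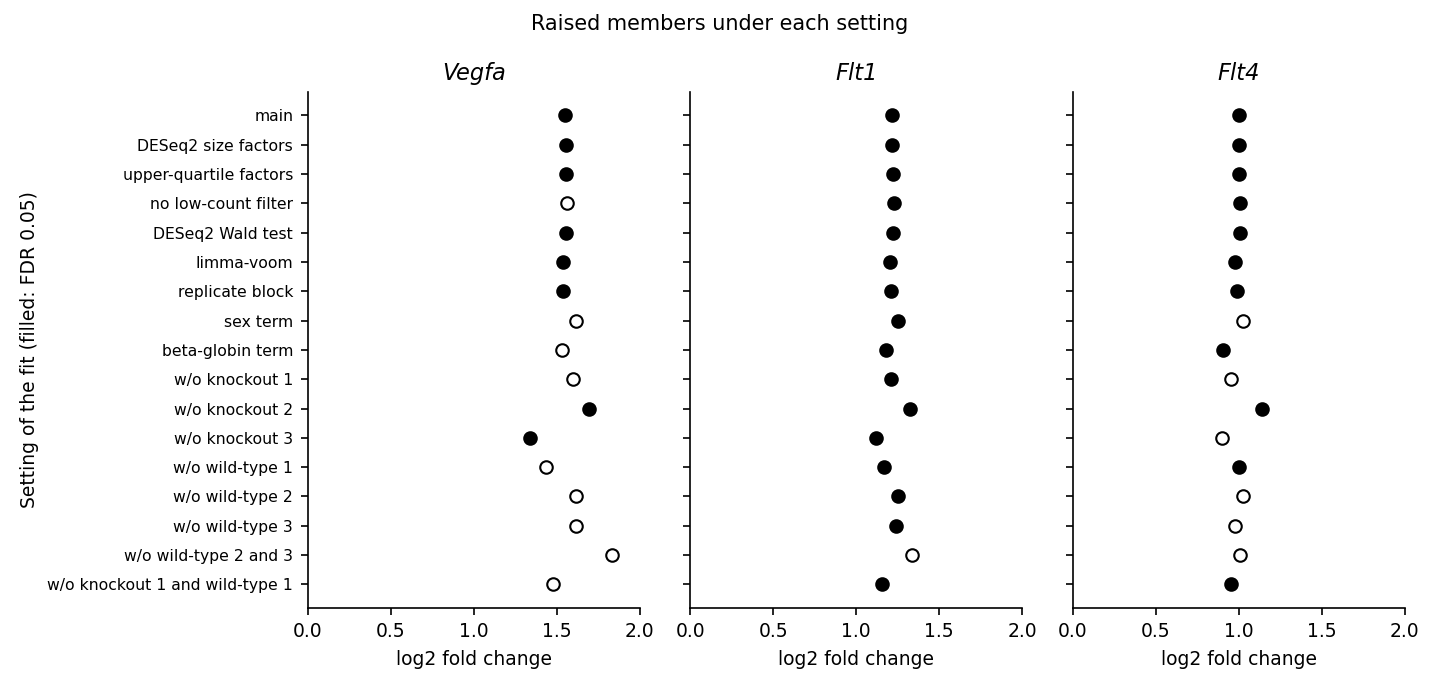
Log2 fold change of Vegfa, Flt1 and Flt4 under each setting of the fit (w/o, without that library). Filled points passed an FDR of 0.05 and open points did not. All points lie between 0.90 and 1.83, and Flt1 is open only without wild-type replicates 2 and 3.

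The authors' deposited table, made from the same libraries, calls 1.22% of its genes higher and gives log2 fold changes of 1.56 for Vegfa (adjusted p = 2.8e-19), 1.22 for Flt1 (adjusted p = 3.0e-21) and 1.01 for Flt4 (adjusted p = 3.2e-08) by DESeq2. In the authors' deposited table the other 6 members have adjusted p from 0.748 (Nrp2) to 0.999.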

How the data were processed

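Whole-brain RNA of 6 mouse embryos was sequenced, and groups were taken from sample titles. The deposited counts are whole reads per gene symbol, not normalized, as the values show. STAR 2.5.2a, featureCounts, DESeq2 1.12.4 and the builds mm10 and hg19 are listed per the submitters' processing notes. The sources used here give neither strand setting nor annotation. Per the file headers, the authors' table holds mean normalized signal, log2 fold change with its error, a Wald score, and p-values.

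From the counts, genes kept by filterByExpr (19565) were scaled by TMM and tested with edgeR 4.0.16 (robust quasi-likelihood). CPM uses TMM-scaled library sizes. Standard errors are the log2 fold change divided by the square root of F, and 95% intervals use its degrees of freedom. Ratios used a pseudocount of 0.5 CPM and exact permutation. Coordinates and exon lengths are from GENCODE on GRCm38, promoters from RefSeq on GRCm38.p6. Alternatives were other size factors, no filter, DESeq2 1.42.0, limma-voom (limma 3.58.1), a replicate block, a sex term, a term for an embryonic share of beta-globin counts above 10%, and libraries left out. The sex term split the libraries at 1000 counts of Xist, so it set apart wild-type replicate 2 alone. Code was tested on simulated data. In the 1 draw made there, the share of edgeR calls that were false was above the nominal FDR of 0.05, so calls near the threshold (Vegfa and Flt4) are less firm than their adjusted p states. Any 2 libraries differed by more than sampling noise, and the common biological coefficient of variation was 15.3%, above counting error for the members.

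The members, lists and rules were chosen with earlier results of these data known. All 9 members are named. Each list contributes its 4 lowest p-values and all calls, except 1 gene that is not reported here. Labels call samples embryos without litters, so the spread behind p-values is that between these 6 samples and may be partly technical.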

Additional observations from a re-analysis of the deposited data

How the results depend on the processing

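The log2 fold changes of Vegfa, Flt1, Flt4, Nrp1 and Nrp2 kept their sign under all 16 alternatives. Leaving out single libraries gave 1.34 to 1.70 for Vegfa (passing in 2 of 6), 1.118 to 1.32 for Flt1 (6 of 6) and 0.90 to 1.14 for Flt4 (2 of 6). The counts that rose ran from 1 to 3 over members, 0 to 1 over ligands, 1 to 2 over receptors, 0 to 2 over receptor partners and 0 to 2 over HIF genes. The number of semaphorin genes that fell ran from 0 to 1. Over all genes tested, these fits gave 33 to 233 that rose and 3 to 155 that fell. The causes were not tested.

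Vegfa missed the threshold with no low-count filter (1.56, adjusted p = 0.202; 0 ligands), with the sex term (1.62, 0.0873; 0 ligands), with the beta-globin term (1.53, 0.240; 0 ligands), without wild-type replicates 2 and 3 together (1.83, 0.480; 0 ligands) and without knockout replicate 1 and wild-type replicate 1 together (1.48, 0.271; 0 ligands). With the sex term, which rests on wild-type replicate 2, Flt4 was at 1.03 (edgeR adjusted p = 0.112). In that fit 1 member and 1 receptor rose, and 0 receptor partners and 0 HIF genes did, where 34 genes rose over the whole table. Without wild-type replicates 2 and 3 together Flt1 was at 1.33 (adjusted p = 0.0555) and Flt4 at 1.01 (0.241), with 0 members, 0 receptors, 0 receptor partners, 0 HIF genes and 3 VEGF-induced genes rising. There the lone wild-type library is assumed to vary like the others. An FDR of 0.01 left 1 member. Receptor partners that rose numbered 2 in the DESeq2 Wald test, with the beta-globin term and without knockout replicate 1 and wild-type replicate 1 together. Over all genes 253, 205 and 265 rose in these fits. In the last of them 1 HIF gene rose, and 2 semaphorin genes fell where 194 fell over all genes.

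Signs turned for members that did not pass. Without wild-type replicates 2 and 3 together Vegfb was at -0.013, Vegfc at -0.086 and Pgf at -0.21. Pgf was at -0.073 with the sex term and -0.015 with the beta-globin term. Without single libraries Pgf ran from -0.073 to 0.14, Kdr from -0.0067 to 0.25, the log2 ratio of Nrp1 to Kdr from -0.16 to 0.15 and that of Nrp2 to Nrp1 from -0.19 to 0.069. Over all genes, 122 rose and 7 fell, and the alternatives gave 16 to 265 and 3 to 194.

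Deviations from group means correlated at 0.651, 0.360 and 0.0544 for replicate numbers 1, 2 and 3, and knockout replicates 2 and 3 correlated best with wild-type replicates 3 and 2, so the numbers were not taken to pair the samples. With the replicate block Vegfa was at 1.54 (adjusted p = 0.0187), Flt1 at 1.21 (2.1e-04) and Flt4 at 0.99 (0.00571), 3 members rose, and 212 genes of the whole table rose and 70 fell. Counting error is largest for Vegfc, Pgf and Flt4, which had the lowest counts of the members, 163 to 715 per library.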

Other observations

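Vegfd, the fifth VEGF ligand gene of the mouse, was the scarcest of the ligands, at 99, 46 and 40 counts in knockout replicates 1, 2 and 3 and at 55, 49 and 37 counts in wild-type replicates 1, 2 and 3. The knockout mean was 1.34 ± 0.823 CPM and the wild-type mean 0.984 ± 0.251 CPM (SD, n = 3). Knockout replicate 1 stood highest at 2.30 CPM and wild-type replicate 1 followed at 1.24 CPM. These 2 libraries also had the highest summed epidermal markers, at 437 and 367 CPM. The fold change of 1.36 had a 95% interval from 0.708 to 2.62 (edgeR adjusted p = 0.833).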
